A study of Mus musculus with 15 samples.

Results

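The genes described here are 55 components of the actin cytoskeleton and of cell motility, chosen by symbol from a list. The rule uses no measured value, but the list was made with earlier results of these data known. All 55 were found among the 14801 rows of the expression table. They were sorted by role into actins, the Arp2/3 complex, its WASP and WAVE activators, turnover and monomer-binding proteins, capping and severing proteins, crosslinkers, non-muscle myosin II, formins and Ena/VASP proteins, small GTPases with their regulators, and linkers to the membrane and to integrins.

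Neutrophils crawl by pushing out a sheet of branched actin at the front and contracting the rear with myosin II. The Arp2/3 complex starts new branches when WASP or the WAVE complex switches it on, formins and VASP lengthen filaments, and cofilin, profilin and thymosins recycle actin between filaments and free monomers. Small GTPases such as Rac and Cdc42, switched on by exchange factors including VAV1 and DOCK2, decide where this happens, and inherited loss of WASP, HEM1 (the product of Nckap1l), coronin 1A, WDR1, moesin, kindlin-3 or DOCK2 causes immune deficiency or leukocyte migration defects in humans.

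Healthy mice gave the bone marrow, from which 5 cell populations were sorted fresh by flow cytometry, and 3 RNA sequencing libraries represent each. The labels name the populations ProNeut_Neutrophil and PreNeut_Neutrophil (ProNeut and PreNeut here), Neutrophil, CD115plusGMP and CMP. The labels do not spell these out; GMP and CMP are the field's usual short forms of granulocyte-monocyte progenitor and common myeloid progenitor, and CD115 is the receptor for colony-stimulating factor 1. No group was treated, and the sources used here give no strain, age, sex or surface markers for the sort. Whether libraries of 1 group stem from different animals is not stated, so the p-values reflect just the library-to-library spread, which may be technical. In sorted bulk RNA, fewer cells of a kind and less RNA per cell cannot be told apart.

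The libraries fell into a pair of sets that follow the groups. The second set holds the ProNeut and PreNeut libraries, with 7493694 to 68171606 reads each over the table. The first set holds the Neutrophil, CD115plusGMP and CMP libraries, with 810794 to 1444403 reads each. ND6, the mitochondrial gene coded on the other strand from the rest of the mitochondrial protein genes, took 0.154% to 0.230% of the mitochondrial protein reads of second-set libraries, but 69.1% to 93.3% of those of first-set libraries. The 503 rows that lack a symbol held 0.102% to 0.146% of second-set reads and 55.6% to 69.5% of first-set reads. First-set values may therefore count mainly reads of the strand opposite to a gene, and since no group is in both sets, set and cell type cannot be told apart. In that case, where genes on opposite strands share exon bases, a first-set row may hold reads of the other gene. Tests were run only within a set, and levels from both sets are set side by side as descriptions.

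The labels were checked against marker genes. CPM (reads scaled by library size), summed over late granule and mature neutrophil genes, was 11400 to 39300 in Neutrophil libraries, 28.2 to 91.0 in CD115plusGMP libraries and 36.9 to 40.2 in CMP libraries. Csf1r, the gene of CD115, had 15, 8 and 4 reads in CD115plusGMP libraries, against 0, 2 and 0 in CMP libraries, and Neutrophil libraries had 13, 4 and 49. Scaled by library size, it stood at 4.3, 4.0 and 3.1 log2 CPM in CD115plusGMP and 5.4, 3.8 and 6.3 in Neutrophil libraries. Csf1r thus set CD115plusGMP apart from CMP but not from Neutrophil libraries. Early granule genes summed to 52.3 to 138 CPM in ProNeut libraries, against 1040 to 1240 CPM in PreNeut libraries, and all 5 such genes tested were lower in ProNeut.

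The actin and motility genes took a larger share of reads in the second set than in the first. They made up 5.63%, 5.43% and 5.54% of reads on rows with a symbol in the 3 ProNeut libraries, against 5.21%, 5.09% and 5.16% in the PreNeut libraries. In the first set the shares were 1.68%, 1.22% and 2.89% in Neutrophil libraries, 0.610%, 0.422% and 0.489% in CD115plusGMP libraries and 0.296%, 0.283% and 0.302% in CMP libraries. Neither ProNeut and PreNeut nor any pair of first-set groups overlapped in this share. Neutrophil replicate 3 stood above the other Neutrophil libraries. It had the highest value of the 3 for 40 of the 55 genes, against 26.3% of all genes with a symbol. Genes with 0 reads lower that second share. A value of 0 reads stood at -0.32 log2 CPM in replicate 3, against 0.63 and 0.62 in replicates 1 and 2. Genes with 0 reads in all 3 libraries thus could not be highest in replicate 3, and 7227 to 8266 rows per Neutrophil library had 0 reads. The share among genes with reads was not computed. The ND6 share of replicate 3 was 69.1%, against 84.5% and 90.9% in Neutrophil replicates 1 and 2. The part of this in the results was not tested, and the counts without that library are given beside the Neutrophil counts.

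**Figure D1:**
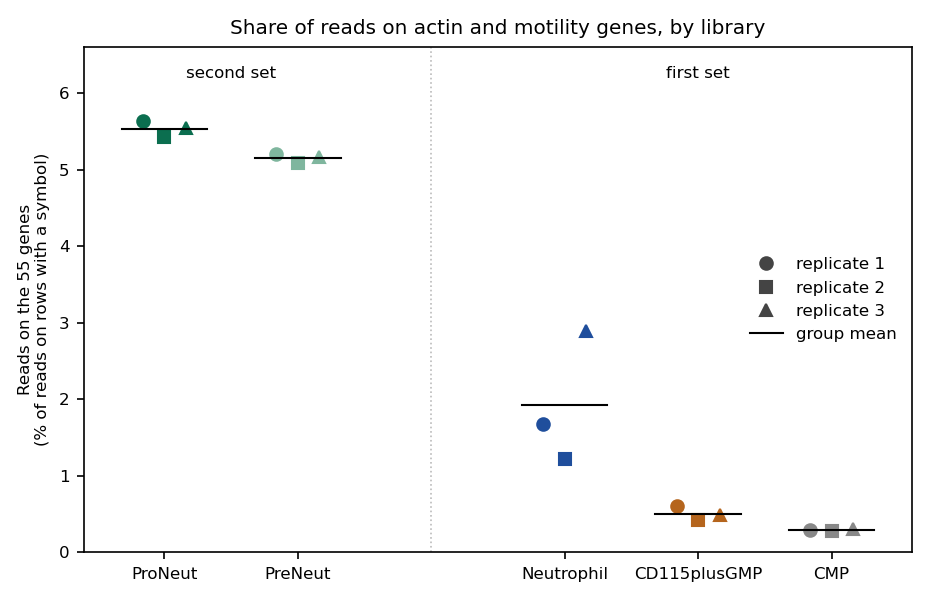
Reads on the 55 actin and motility genes as a percentage of reads on rows with a gene symbol (vertical axis), one point per library, with the group mean as a line; symbols mark the replicates. ProNeut (5.43% to 5.63%) lies above PreNeut (5.09% to 5.21%), and within the first set Neutrophil (1.22% to 2.89%) lies above CD115plusGMP (0.422% to 0.610%) and CMP (0.283% to 0.302%).

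Ranks were taken among the rows with a symbol in each library. The median gene of the 55 stood at the 98.3rd to 98.5th percentile in ProNeut libraries and the 98.2nd in each PreNeut library. It stood between the 91.8 and 94.6 percentiles in Neutrophil libraries, 82.1 and 88.0 in CD115plusGMP libraries, and 73.3 and 75.9 in CMP libraries. From 46 to 47 of the 55 genes were in the top 10% of these rows in ProNeut libraries and 45 to 47 in PreNeut libraries. The numbers were 30 to 40 in Neutrophil libraries, 18 to 23 in CD115plusGMP libraries and 10 to 14 in CMP libraries.

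**Figure D2:**
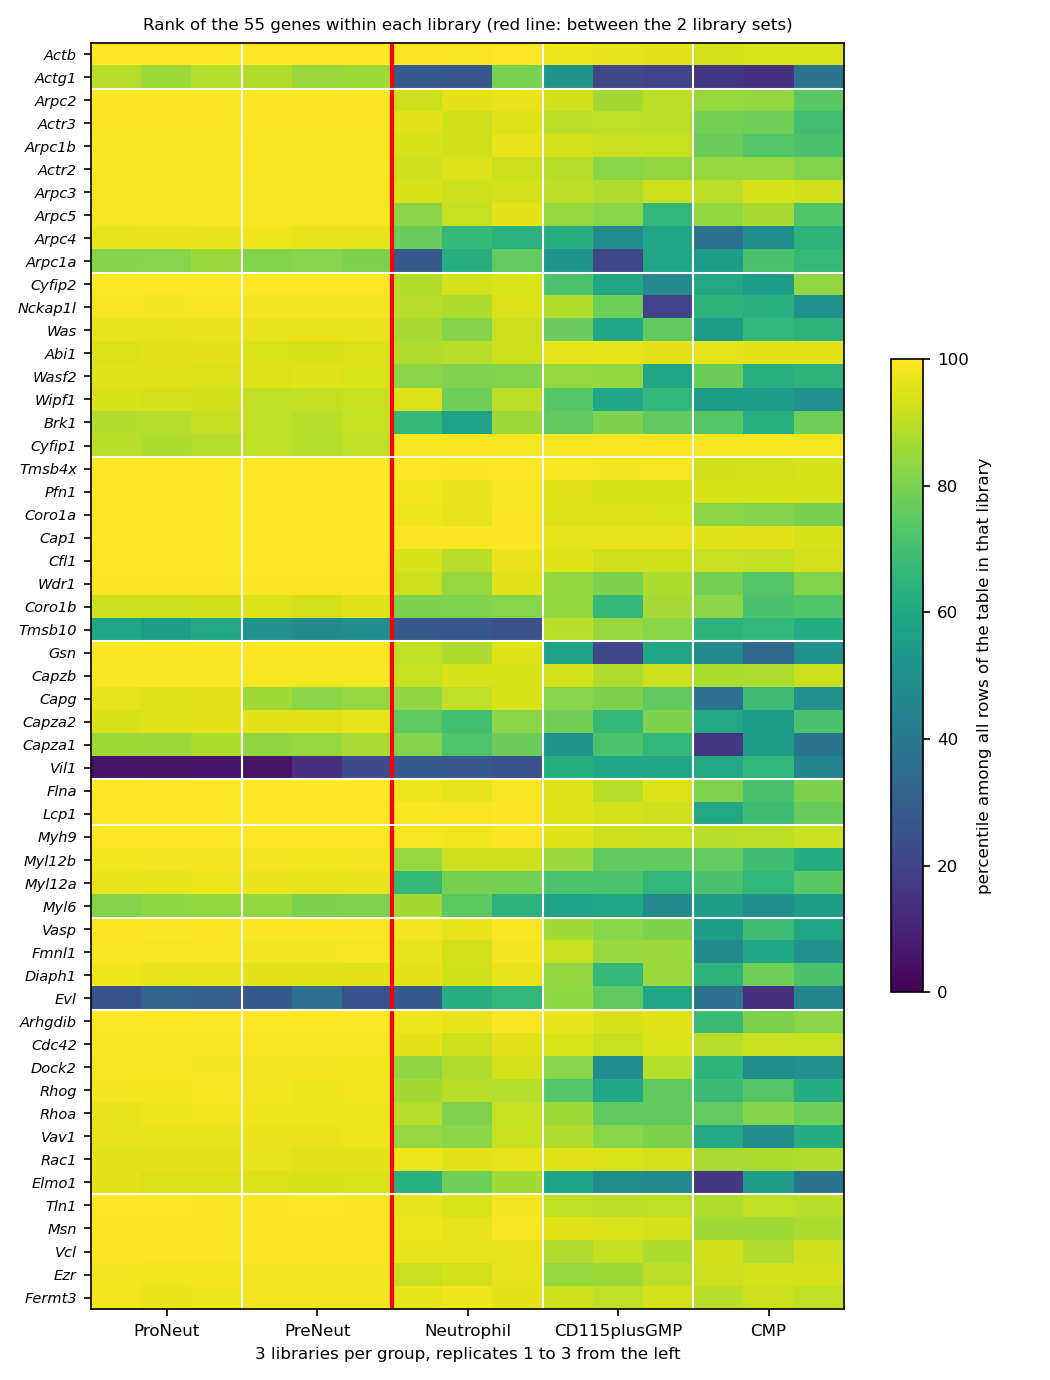
Percentile of each of the 55 genes among the rows with a symbol (colour, 0 to 100) in each of the 15 libraries, genes grouped by role. The colour bar is worded as all rows of the table, but the ranks are among rows with a symbol. Most rows are near the top of the scale in ProNeut and PreNeut, whereas Evl, Vil1 and Tmsb10 are low there, at or below the 60.3 percentile, and Cyfip1 is at or above the 98.5 percentile in all 9 first-set libraries.

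Per kilobase of annotated exon, Actb was the most abundant of the 55 in ProNeut, at 10.98 ± 0.09 log2 CPM per kb (SD, n = 3), followed by Arhgdib at 10.67 ± 0.11 and Tmsb4x at 10.52 ± 0.13. Pfn1 (9.09 ± 0.11), Coro1a (8.08 ± 0.09) and Arpc2 (8.0 ± 0.12) came next, and the last 2 differ by less than their spread. The genes with the lowest levels per kb in ProNeut were Cyfip1 (2.27 ± 0.14), Evl (-2.15 ± 0.56) and Vil1 (-7.16 ± 0.40, with 0 reads in all 3 libraries). In Neutrophil libraries, Tmsb4x was highest at 11.20 ± 0.32 log2 CPM per kb, followed by Actb (9.29 ± 0.30) and Cap1 (8.85 ± 0.21).

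The order of the 55 mean levels in Neutrophil libraries was closer to that in ProNeut than the order in CMP libraries was. Across the 55 genes, Spearman's rank correlation with ProNeut was 0.819 for Neutrophil, 0.602 for CD115plusGMP and 0.511 for CMP. Over the 34 genes with under 50 exon bases in common with a gene on the opposite strand it was 0.913, 0.643 and 0.617. Over all 14298 rows with a symbol it was 0.498, 0.45 and 0.414. These are descriptions across genes that share libraries, transcript length and strand, not tests.

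Actin genes are classic targets of SRF, a transcription factor that binds the CArG box and whose MRTF partners sense free actin monomer. RefSeq promoter windows (GRCm38.p6, 250 bases before to 50 after a start site) were at hand for 49 of the 55 genes, and 5 of these 49 genes (10.2%) hold a CArG box in a window. By window, the box is in 5 of 64 windows (7.81%) of the 55 genes and in 535 of 32851 (1.63%) of all windows of this length, both strands being covered since the motif reads alike on each. The windows of Actb, Nckap1l, Cyfip1, Coro1b, Diaph1 and Rac1 were not used here. The 5 sites are shown because they are the only letters of this motif found near these start sites, with the box in capitals and up to 20 bases on each side, on the strand of the gene.
Actg1 (chr11:120348556-120348605, minus strand): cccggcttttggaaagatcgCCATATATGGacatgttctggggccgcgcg
Myl6 (chr10:128493030-128493079, minus strand): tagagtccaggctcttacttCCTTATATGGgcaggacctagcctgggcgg
Vcl (chr14:20929151-20929200, plus strand): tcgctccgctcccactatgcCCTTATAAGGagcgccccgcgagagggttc
Vil1 (chr1:74409291-74409340, plus strand): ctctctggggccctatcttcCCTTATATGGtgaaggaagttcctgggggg
Arpc4 (chr6:113377863-113377892, plus strand): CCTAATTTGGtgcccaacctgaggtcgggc
A match of letters is a description and not a binding site. In ProNeut against PreNeut, Actg1, Myl6, Vcl and Arpc4 differed by 0.16, 0.08, 0.05 and -0.01 log2 units, none of them past the test, and Vil1 was near 0 reads. SRF itself and its partner Mkl1 were called higher in Neutrophil than in CMP libraries (2.17 ± 0.76 and 3.40 ± 0.58 log2 units ± SE, adjusted p = 0.023 and 0.00019), and none of the 3 SRF pathway genes tested was called between ProNeut and PreNeut.

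ProNeut against PreNeut asks how the genes differ between neighbouring labelled neutrophil populations. Genes counted as called had a limma p, adjusted by Benjamini-Hochberg over all 11835 rows tested, under 0.05 and a difference of at least 1 log2 unit. Of 54 genes tested, 1 was called higher in ProNeut and 0 lower; over all rows tested 3.75% were called higher and 3.65% lower. Without the size limit, 13 of the 54 were higher at an adjusted p under 0.05 and 0 lower, against 12.9% of all rows tested that were higher. The median difference of the 54 genes was 0.15 log2 units, against -0.01 for all rows tested, and 45 of the 54 lay above 0. That median was 0.23 with median centring, 0.06 with quantile normalization and 0.07 with totals over rows with a symbol; relative to the median of all rows tested it was 0.16 in the deposited scaling and 0.07 with quantile normalization. At an unadjusted p under 0.05, 21 were higher and 1 lower, against 17.9% and 19.6% of all rows tested. Limma voom on the recovered reads called 1 higher and 0 lower, against 6.57% and 3.46% of all rows tested. Of all 55, 23 had values that did not overlap between the groups (21 higher in ProNeut), against 35.1% of all rows in the table. Of the 54 tested, 21 were higher without overlap and 2 lower, against 19.4% and 21.6% of all rows tested (41% either way).

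The gene called was Capg, which caps the fast-growing ends of actin filaments and belongs to the gelsolin family (Entrez 12332, GRCm38 chr6:72544391-72562983, plus strand). Capg had 7.03, 6.76 and 6.96 log2 CPM in ProNeut libraries and 5.5, 5.21 and 5.43 in PreNeut libraries. Every ProNeut library was above every PreNeut library, and the difference was 1.54 ± 0.1 log2 units (SE, adjusted p = 6.6e-09). In rank, Capg stood at the 95.3 to 96.2 percentiles in ProNeut libraries and 82.4 to 85.7 in PreNeut libraries. The call held under all 3 other scalings and without any single library. It was lost with all 15 libraries in 1 fit.

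The other 12 genes past the adjusted p differed by 0.25 to 0.82 log2 units. Tmsb10, a thymosin that binds actin monomers (GRCm38 chr6:72957347-72958748, minus strand), had 3.27, 2.93 and 3.41 log2 CPM in ProNeut libraries and 2.57, 2.17 and 2.39 in PreNeut libraries, a difference of 0.82 ± 0.19 (adjusted p = 0.0043). It was the faintest of them, with 144, 159 and 275 reads in ProNeut libraries and 161, 114 and 741 in PreNeut libraries. Its groups did not overlap.

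Vasp, which keeps growing filament ends free of caps, had 9.09, 8.87 and 9.0 log2 CPM in ProNeut libraries and 8.53, 8.38 and 8.51 in PreNeut libraries, a difference of 0.52 ± 0.08 (adjusted p = 0.00015). The formin Fmnl1 had 8.27, 8.01 and 8.1 log2 CPM in ProNeut libraries and 7.63, 7.62 and 7.81 in PreNeut libraries (0.44 ± 0.09, adjusted p = 0.001). Diaph1, the formin that acts downstream of RhoA, had 7.36, 7.03 and 7.14 log2 CPM in ProNeut libraries and 6.85, 6.81 and 6.83 in PreNeut libraries (0.34 ± 0.09, adjusted p = 0.0078). These 3 of the 4 elongation genes were higher in every ProNeut library than in any PreNeut library. Evl, the other Ena/VASP member, had 6, 19 and 18 reads in ProNeut libraries and 15, 38 and 53 in PreNeut libraries. It differed by -0.06 ± 0.66 log2 units, an SE too wide to tell a difference of 1 unit from none.

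Lcp1, the leukocyte bundling protein L-plastin, had 10.41, 10.31 and 10.49 log2 CPM in ProNeut libraries and 9.96, 9.87 and 10.04 in PreNeut libraries (0.45 ± 0.08, adjusted p = 0.00064). Its partner in crosslinking, Flna (filamin A), had 10.98, 10.71 and 10.7 log2 CPM in ProNeut libraries and 10.6, 10.64 and 10.58 in PreNeut libraries (0.19 ± 0.09, adjusted p = 0.14). Both had groups without overlap, and the difference of Flna missed the threshold.

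Among the activators of Arp2/3, Wipf1, which binds and stabilises WASP, had 6.58, 6.45 and 6.35 log2 CPM in ProNeut libraries and 5.99, 6.01 and 6.15 in PreNeut libraries (0.41 ± 0.09, adjusted p = 0.0024). Nckap1l, which codes for the leukocyte scaffold of the WAVE complex, had 7.97, 7.68 and 7.85 log2 CPM in ProNeut libraries and 7.49, 7.46 and 7.6 in PreNeut libraries (0.32 ± 0.09, adjusted p = 0.01). Abi1 had 6.71, 6.78 and 6.89 log2 CPM in ProNeut libraries and 6.5, 6.47 and 6.62 in PreNeut libraries (0.26 ± 0.08, adjusted p = 0.029). Cyfip2 had 9.47, 9.21 and 9.25 log2 CPM in ProNeut libraries and 9.07, 9.08 and 9.05 in PreNeut libraries (0.25 ± 0.08, adjusted p = 0.034). These 4 of 8 activators were past the adjusted p, all higher in ProNeut. Was, Wasf2, Cyfip1 and Brk1 differed by 0.03, 0.12, -0.1 and -0.08 log2 units with adjusted p of 0.33 or more.

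Arpc5 was the 1 of 8 Arp2/3 subunits past the adjusted p. It had 8.09, 8.0 and 8.14 log2 CPM in ProNeut libraries and 7.83, 7.68 and 7.87 in PreNeut libraries (0.28 ± 0.08, adjusted p = 0.013). The other 7 subunits differed by -0.01 to 0.23 log2 units. Cap1, which strips cofilin and ADP-actin from filament ends, had 9.54, 9.38 and 9.53 log2 CPM in ProNeut libraries and 9.22, 9.06 and 9.31 in PreNeut libraries (0.28 ± 0.08, adjusted p = 0.019). Dock2, the Rac exchange factor of leukocytes, had 7.88, 7.77 and 7.82 log2 CPM in ProNeut libraries and 7.55, 7.54 and 7.55 in PreNeut libraries (0.28 ± 0.07, adjusted p = 0.0091).

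The remaining 41 tested genes had differences of -0.25 to 0.26 log2 units and adjusted p of 0.051 or more. They include Actb, which had 12.41, 12.31 and 12.49 log2 CPM in ProNeut libraries and 12.25, 12.07 and 12.2 in PreNeut libraries, and all 4 myosin II genes (0.04 to 0.17) and all 5 linkers to the membrane or integrins (-0.12 to 0.17). The lowest differences were those of Coro1b (-0.25 ± 0.1, adjusted p = 0.058) and Vav1 (-0.17 ± 0.08, adjusted p = 0.15), the only tested genes lower in every ProNeut library than in any PreNeut library. Vil1, coding for the gut microvillus protein villin, was not tested; it had 0 reads in every ProNeut library and 0, 1 and 31 in PreNeut libraries, at least 3.40-fold lower in ProNeut for a floor of 3 reads over the group. That bound rests on PreNeut replicate 3, without which PreNeut had 1 read, under the floor.

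The number of genes past the adjusted p without the size limit depended on the scaling: 28 higher and 0 lower with median centring, 15 and 4 with quantile normalization, and 11 and 3 with totals over rows with a symbol. The shares of all rows tested past the same limit were 16.2% higher and 11.7% lower, 13.4% and 14.1%, and 9.25% and 17.9%. Over all rows tested, the last scaling called 363 higher and 530 lower with the size limit, against 444 and 432 in the deposited scaling. Erythroid markers differed between the same groups: 10 of 13 tested were called higher in ProNeut (median 3.45 log2 units), with summed levels of 85.5 to 94.4 CPM in ProNeut and 49.2 to 71.5 CPM in PreNeut libraries and no marker at 0. All 4 basophil and mast cell markers tested were called lower in ProNeut, with 1.67 to 2.05 CPM in ProNeut and 26.2 to 30.3 CPM in PreNeut libraries and Fcer1a at 0 in ProNeut. Of the other lists, 5 of 12 late granule, 2 of 14 monocyte, 1 of 9 platelet, 0 of 2 B lymphoid, 1 of 5 T and NK cell and 0 of 8 stem cell markers were called higher in ProNeut, and 1 of the T and NK cell markers was called lower. The part of this, and of the granule genes above, in the actin differences was not tested.

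**Figure D3:**
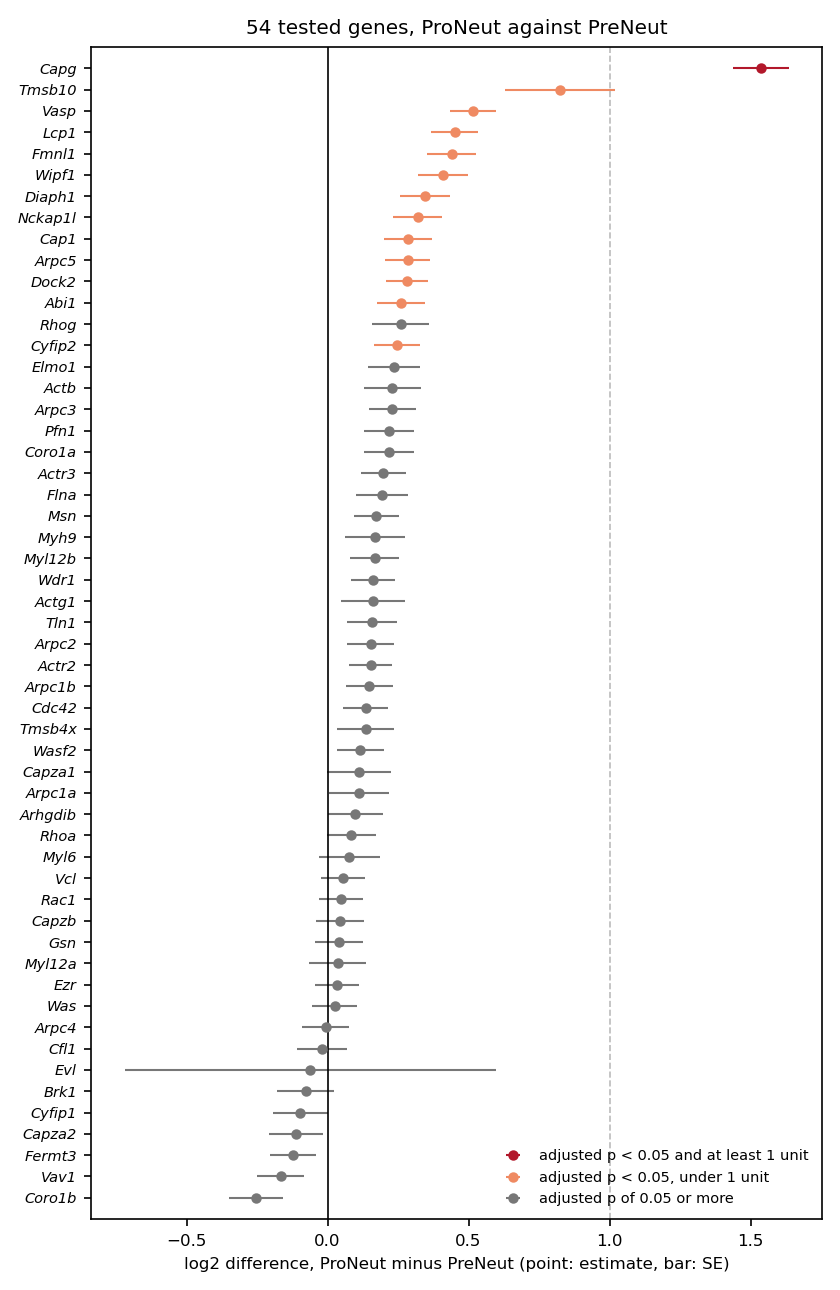
Log2 difference between ProNeut and PreNeut (horizontal axis, point with SE) for the 54 genes tested, in order of size. Capg (1.54) is the only gene past both limits, 12 more are past the adjusted p alone (0.25 to 0.82), and 45 of the 54 lie to the right of 0.

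In the first set the genes were higher in Neutrophil than in CMP libraries in nearly every role. Of 52 genes tested, 46 were called higher and 1 lower, against 34% and 26.2% of the 7384 rows tested. The median difference was 3.24 log2 units, against 0.24 for all rows tested, and 49 of all 55 genes had values that did not overlap between the groups, against 55% of all rows in the table. Of the 52 genes tested, 46 were higher without overlap and 1 lower, against 36.9% and 27.8% of all rows tested (64.7% either way). Against CD115plusGMP, 40 of the 52 were called higher in Neutrophil libraries and 1 lower, with 30.4% and 21.1% of all rows tested. The median there was 2.52, against 0.29 for all rows tested, and 47 of 55 did not overlap, against 35.6% of all rows in the table. Of the 52 tested, 43 were higher without overlap and 2 lower, against 33.2% and 22% of all rows tested (55.2% either way). Without Neutrophil replicate 3, which leaves 48 genes tested, 42 were called higher and 1 lower against CMP, and 36 higher and 2 lower against CD115plusGMP, with medians of 3.06 and 2.14. With no filter on low reads, all 55 genes being tested, the calls were 47 higher and 1 lower against CMP and 39 higher and 1 lower against CD115plusGMP, with 32.3% and 13.6%, and 17.2% and 10%, of all 14801 rows.

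Fewer genes were called between the progenitor groups. In CD115plusGMP against CMP, 16 of the 52 genes were called higher and 0 lower, with 11.4% and 5.2% of all rows tested called. The median was 0.71, against 0.04 for all rows tested, and 24 of 55 genes were without overlap, against 41.9% of all rows in the table. Of the 52 genes tested, 23 were higher without overlap and 1 lower, against 26% and 18.6% of all rows tested (44.7% either way). Shares over all rows in the table count rows with 0 reads in both groups as higher than CMP without overlap. A value of 0 reads stood at -1.31 to -0.79 log2 CPM in CMP, -0.62 to -0.07 in CD115plusGMP and -0.32 to 0.63 in Neutrophil libraries. At an unadjusted p under 0.05, 20 were higher and 1 lower, against 18.2% and 10.3% of all rows tested. Limma voom called 15 higher and 0 lower, against 11.2% and 6.3% of all rows tested. The 3 comparisons share libraries pairwise, so they are not independent, and each gene's values are given for all 3 groups together. Of the 16 genes called higher in CD115plusGMP than CMP, 14 were also called higher in Neutrophil than CD115plusGMP. Gsn and Capza1 passed the filter on low reads through Neutrophil libraries alone. Actg1, Elmo1 and Vil1 did not pass it.

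Counts in the first set moved with the scaling. The library size behind the deposited values was 0.254 to 0.445 of the reads in Neutrophil libraries, 0.570 to 0.648 in CD115plusGMP libraries and 0.861 to 0.908 in CMP libraries. For Neutrophil against CMP they were 37 higher and 2 lower with median centring, 38 and 2 with quantile normalization, and 35 and 2 with totals over rows with a symbol; all rows tested split into 2507 higher and 1931 lower in the deposited scaling, but 1864 and 2701, 2019 and 2279, and 1801 and 2657 in these. For Neutrophil against CD115plusGMP the counts were 29 and 2, 28 and 2, and 34 and 2, and all rows tested split into 2248 and 1561, but 1432 and 2400, 1649 and 1742, and 1672 and 2012. For CD115plusGMP against CMP they were 15 and 0, 15 and 0, and 10 and 1, and all rows tested split into 842 and 384, but 803 and 382, 927 and 777, and 615 and 561. The scalings shift the median of all rows tested by up to -0.94 log2 units (Neutrophil against CMP, totals over rows with a symbol). Relative to that median, the 52 genes stood 3.0 log2 units higher in Neutrophil than CMP in the deposited scaling and 2.75 with quantile normalization, and 2.22 and 1.61 higher in Neutrophil than CD115plusGMP. In that last comparison the calls of Arpc1b, Arpc3, Capg and Rac1 held under 1 of the 3 other scalings and those of Wdr1, Myl6 and Myl12b under 2. In Neutrophil against CMP, the calls of Arpc4, Arpc5, Capza2, Myl6 and Rhoa held under 1 and that of Capzb under 2. The calls of Vasp, Evl and Vav1 between CD115plusGMP and CMP held under 2. The second gene called lower in Neutrophil libraries under the other scalings was Abi1, and the gene called lower in CD115plusGMP under totals over rows with a symbol was Ezr.

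**Figure D4:**
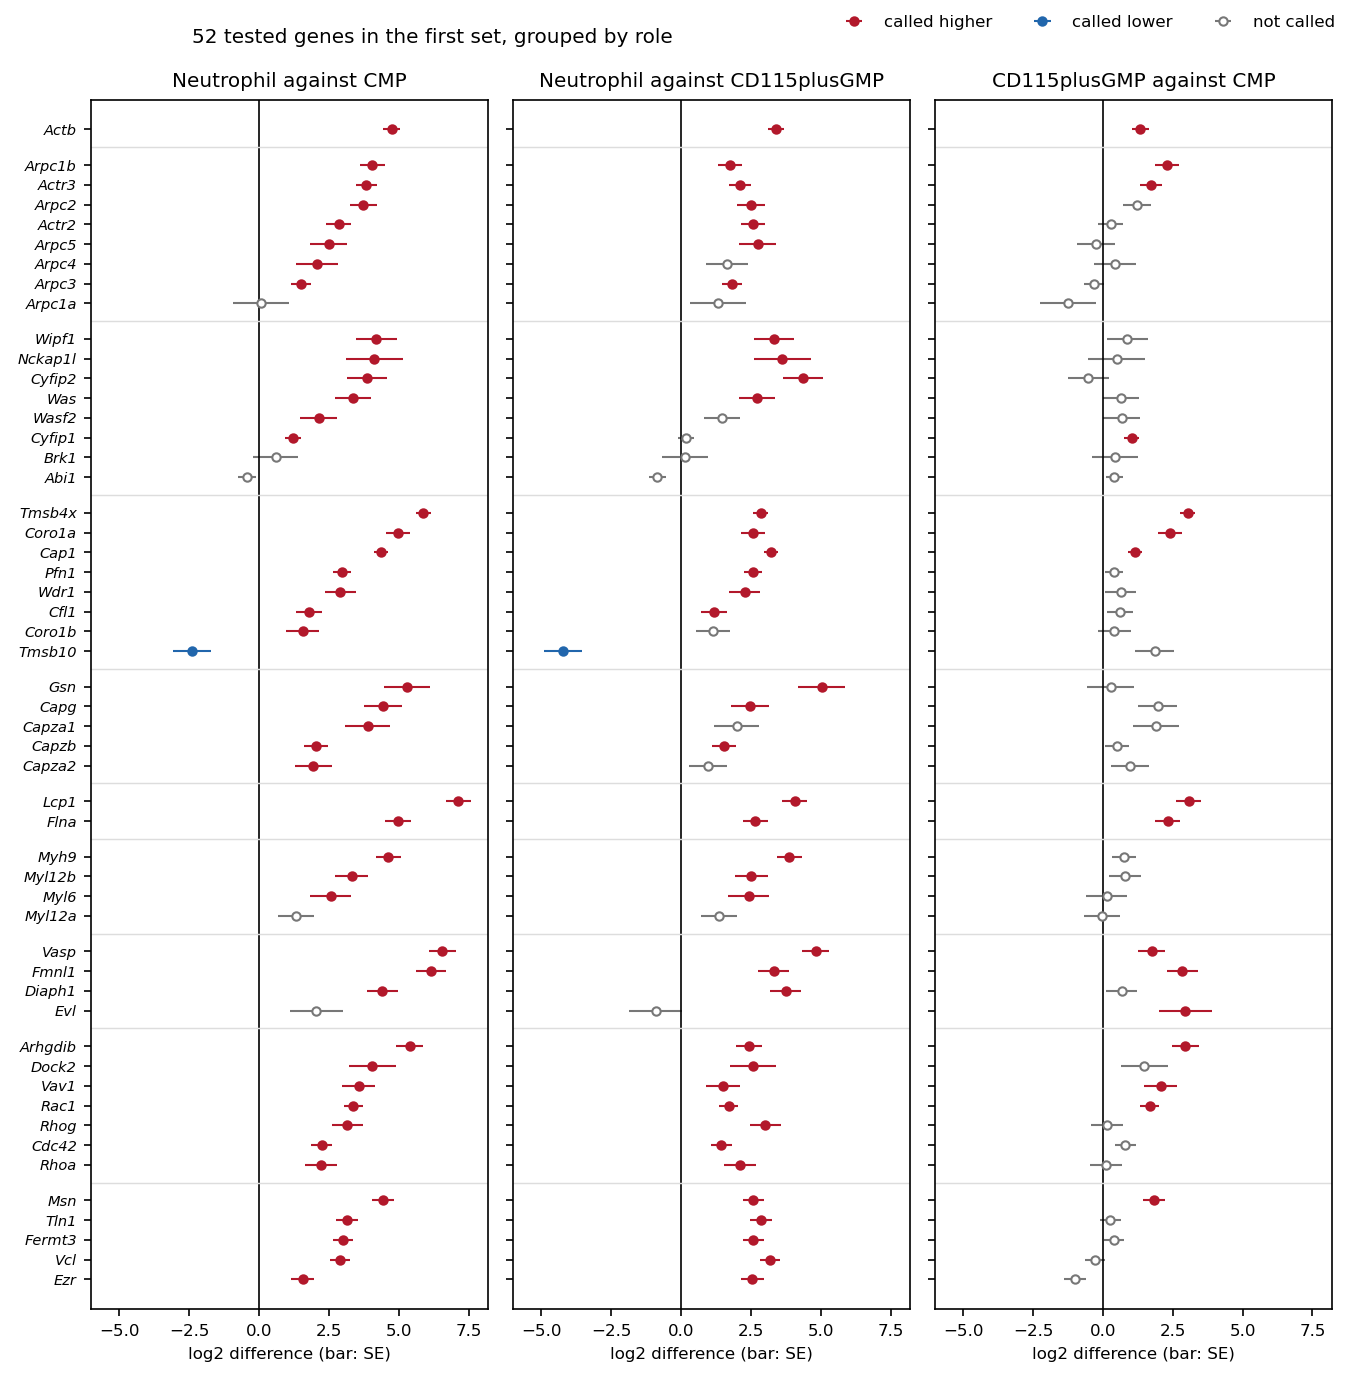
Log2 differences (point with SE) of the 52 genes tested in the first set, grouped by role, for Neutrophil against CMP, Neutrophil against CD115plusGMP and CD115plusGMP against CMP. Filled points were called; 46, 40 and 16 genes were called higher, and Tmsb10 was the only gene called lower.

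Of the actins, Actb (beta-actin) had 10.6, 10.49 and 11.06 log2 CPM in Neutrophil libraries, 7.85, 7.17 and 6.92 in CD115plusGMP libraries and 5.75, 6.04 and 6.12 in CMP libraries. The 3 groups did not overlap, and Neutrophil was higher than CMP by 4.75 ± 0.29 (SE, adjusted p = 2.1e-08) and CD115plusGMP higher than CMP by 1.34 ± 0.29 (adjusted p = 0.0049); that last call held under 1 of the 3 other scalings. Actg1 (gamma-actin) had 0, 0 and 21 reads in Neutrophil libraries, 3, 0 and 0 in CD115plusGMP libraries and 0, 0 and 2 in CMP libraries. All 21 Neutrophil reads were in replicate 3, which alone gives the ratio of 26.1 against CMP (95% counting interval 6.37 to 229). In the second set Actg1 had 5.9, 5.5 and 5.84 log2 CPM in ProNeut libraries and 5.76, 5.44 and 5.55 in PreNeut libraries and 892 to 6632 reads per library.

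In the Arp2/3 complex, 7 of 8 subunits were called higher in Neutrophil than CMP, 6 of 8 higher in Neutrophil than CD115plusGMP, and 2 of 8 higher in CD115plusGMP than CMP. Actr3, one of the actin-related proteins that form the base of a branch, had 7.52, 6.96 and 7.53 log2 CPM in Neutrophil libraries, 5.4, 5.2 and 5.06 in CD115plusGMP libraries and 3.73, 3.68 and 3.08 in CMP libraries. The other, Actr2, had 6.74, 7.56 and 6.82 log2 CPM in Neutrophil libraries, 5.21, 4.0 and 4.18 in CD115plusGMP libraries and 4.25, 4.28 and 4.04 in CMP libraries. Arpc2, a core subunit, had 6.74, 8.07 and 8.3 log2 CPM in Neutrophil libraries, 5.95, 4.56 and 5.06 in CD115plusGMP libraries and 4.25, 4.21 and 3.44 in CMP libraries. All 3 were higher in every Neutrophil library than in any other of the first set, by 3.84, 2.85 and 3.74 log2 units against CMP.

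Arpc1 exists as a pair of alternative subunits. Arpc1b, the form found mainly in blood cells, had 7.11, 6.99 and 8.21 log2 CPM in Neutrophil libraries, 6.25, 5.47 and 5.29 in CD115plusGMP libraries and 3.6, 3.31 and 3.21 in CMP libraries. Arpc1a had 0.63, 2.94 and 4.72 log2 CPM in Neutrophil libraries, 2.19, -0.09 and 2.25 in CD115plusGMP libraries and 2.02, 3.17 and 2.93 in CMP libraries. Arpc1b was called higher in Neutrophil than CMP (4.06 ± 0.43, adjusted p = 2.8e-06) and in CD115plusGMP than CMP (2.29 ± 0.43, adjusted p = 0.0018), whereas Arpc1a had 18, 5 and 21 reads in the 3 groups and a difference of 0.06 ± 1.0 (adjusted p = 0.96) between Neutrophil and CMP. Per kb, Arpc1b exceeded Arpc1a by 3.68 ± 1.59, 3.22 ± 1.27 and -0.33 ± 0.80 log2 units (SD, n = 3) in Neutrophil, CD115plusGMP and CMP libraries, and by 2.05 ± 0.11 in ProNeut and 2.01 ± 0.19 in PreNeut. Arpc1b shares 931 exon bases with Pdap1 on the opposite strand. Pdap1 had 735, 972 and 455 reads in the Neutrophil, CD115plusGMP and CMP groups, against 269, 101 and 31 on Arpc1b. In ProNeut and PreNeut, Pdap1 had 1761 and 6151 reads, against 19129 and 55015 on Arpc1b. The part of this overlap in the Arpc1b values was not tested.

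Arpc3 had 7.11, 6.88 and 7.16 log2 CPM in Neutrophil libraries, 5.36, 4.77 and 5.54 in CD115plusGMP libraries and 5.04, 5.93 and 5.65 in CMP libraries. Arpc5 had 5.15, 6.64 and 7.76 log2 CPM in Neutrophil libraries, 4.59, 4.0 and 2.74 in CD115plusGMP libraries and 4.16, 4.59 and 3.33 in CMP libraries. Arpc4, at 17, 8 and 12 reads in the 3 groups, had 4.54, 3.42 and 3.59 log2 CPM in Neutrophil libraries, 2.84, 1.5 and 2.25 in CD115plusGMP libraries and 0.79, 1.73 and 2.77 in CMP libraries. These were called higher in Neutrophil than CMP, but Arpc3 under none of the 3 other scalings and Arpc4 and Arpc5 under 1 each, and Arpc4 in 3 of the 6 fits that leave out a library. None of them was called between CD115plusGMP and CMP.

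Of the 8 WASP and WAVE genes, 6 were called higher in Neutrophil than CMP and 4 higher in Neutrophil than CD115plusGMP. Was, the blood-cell activator whose loss causes Wiskott-Aldrich syndrome in humans, had 5.76, 5.14 and 6.78 log2 CPM in Neutrophil libraries, 3.9, 2.23 and 3.39 in CD115plusGMP libraries and 2.02, 2.83 and 2.77 in CMP libraries. Wipf1 had 7.37, 4.7 and 6.5 log2 CPM in Neutrophil libraries, 3.63, 2.23 and 2.74 in CD115plusGMP libraries and 2.02, 2.09 and 1.86 in CMP libraries. Nckap1l had 6.12, 5.97 and 7.41 log2 CPM in Neutrophil libraries, 5.11, 3.61 and -0.07 in CD115plusGMP libraries and 2.67, 2.62 and 1.86 in CMP libraries. Within the first set each had its 3 highest values in the Neutrophil libraries. The differences from CMP were 3.35 ± 0.65, 4.2 ± 0.72 and 4.12 ± 1.02 log2 units (adjusted p = 0.00054, 0.00021 and 0.0032).

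Wasf2, the WAVE2 protein itself, had 5.15, 5.01 and 5.23 log2 CPM in Neutrophil libraries, 4.59, 4.16 and 2.25 in CD115plusGMP libraries and 3.6, 2.62 and 2.77 in CMP libraries. It was called between Neutrophil and CMP (2.13 ± 0.66, adjusted p = 0.012) under the deposited scaling and under none of the 3 others. Brk1, the smallest WAVE subunit, had 3.44, 2.2 and 5.79 log2 CPM in Neutrophil libraries, 3.77, 3.82 and 3.39 in CD115plusGMP libraries and 3.3, 2.62 and 3.73 in CMP libraries, and its groups overlapped. Abi1 had 5.92, 6.23 and 6.84 log2 CPM in Neutrophil libraries, 7.18, 7.35 and 6.98 in CD115plusGMP libraries and 6.89, 6.67 and 6.73 in CMP libraries. Abi1 had 114 reads in Neutrophil, 263 in CD115plusGMP and 340 in CMP libraries, and every Neutrophil value lay below every CD115plusGMP value. Its difference between Neutrophil and CD115plusGMP was -0.84 ± 0.31 (adjusted p = 0.034), short of 1 log2 unit, and it was -1.71 to -1.41, called lower, under the other scalings. Abi1 shares 194 exon bases with Pdss1 on the opposite strand.

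Cyfip1 and Cyfip2, interchangeable WAVE subunits that bind active Rac1, were in opposite order in the library sets. Cyfip2 had 5.99, 7.02 and 7.33 log2 CPM in Neutrophil libraries, 3.47, 2.23 and 1.51 in CD115plusGMP libraries and 2.38, 2.09 and 4.3 in CMP libraries. Cyfip1 had 10.04, 10.34 and 9.25 log2 CPM in Neutrophil libraries, 9.64, 9.67 and 9.77 in CD115plusGMP libraries and 8.86, 8.36 and 8.77 in CMP libraries. Cyfip2 was called higher in Neutrophil than CMP (3.86 ± 0.72, adjusted p = 0.00043) and than CD115plusGMP (4.38 ± 0.72, adjusted p = 0.00023).

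Per kb, Cyfip2 exceeded Cyfip1 by 4.21 ± 0.06 log2 units in ProNeut and 3.87 ± 0.13 in PreNeut libraries (SD, n = 3). The same difference was -2.35 ± 1.09 in Neutrophil, -6.54 ± 1.05 in CD115plusGMP and -4.99 ± 1.10 in CMP libraries. Cyfip1 (GRCm38 chr7:55841745-55932602, plus strand) took 2.57% to 8.82% of the reads on the 55 genes in Neutrophil, 19.7% to 29.7% in CD115plusGMP and 23.5% to 32.2% in CMP libraries, but 0.202% to 0.223% in ProNeut and 0.247% to 0.261% in PreNeut libraries. It shares 1316 exon bases with Nipa2 on the opposite strand, which had 14, 30 and 25 reads in the Neutrophil, CD115plusGMP and CMP groups and 946 and 3498 in ProNeut and PreNeut; the part of this overlap in the Cyfip1 values was not tested. Its calls between CD115plusGMP and CMP (1.03 ± 0.28, adjusted p = 0.02) and between Neutrophil and CMP (1.21 ± 0.28, adjusted p = 0.0019) were lost under all 3 other scalings.

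Among turnover and monomer-binding genes, 7 of 8 were called higher in Neutrophil than CMP and 1 lower. Between Neutrophil and either progenitor group the pair of thymosins moved in opposite directions. Tmsb4x, coding for the main monomer-sequestering protein of leukocytes (GRCm38 chrX:167207093-167209315, minus strand), had 11.51, 11.43 and 12.03 log2 CPM in Neutrophil libraries, 9.22, 8.54 and 8.65 in CD115plusGMP libraries and 5.62, 5.74 and 5.96 in CMP libraries. The groups did not overlap, with a difference of 5.88 ± 0.26 between Neutrophil and CMP (adjusted p = 1.1e-09), 2.85 ± 0.26 between Neutrophil and CD115plusGMP (adjusted p = 1.5e-06) and 3.03 ± 0.26 between CD115plusGMP and CMP (adjusted p = 3.1e-06). Tmsb10 had 0 reads in all 3 Neutrophil libraries, 30, 10 and 8 in CD115plusGMP libraries and 5, 7 and 7 in CMP libraries.

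For a floor of 3 reads over the group, Tmsb10 was at least 11.2-fold lower in Neutrophil than CD115plusGMP and at least 2.55-fold lower than in CMP, and it was called lower in both (adjusted p = 0.00019 and 0.008). With 2 reads added in place of 0.5, the difference from CMP was -0.68 log2 units and the call was lost (adjusted p = 0.26). Tmsb4x exceeded Tmsb10 per kb by 4.16 ± 0.36 log2 units in CD115plusGMP, 2.97 ± 0.25 in CMP, 7.66 ± 0.16 in ProNeut and 8.35 ± 0.06 in PreNeut libraries (SD, n = 3). Of the 50-base words of Tmsb10 transcripts, 43.5% also occur in transcripts of other genes, so its reads are uncertain.

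**Figure D5:**
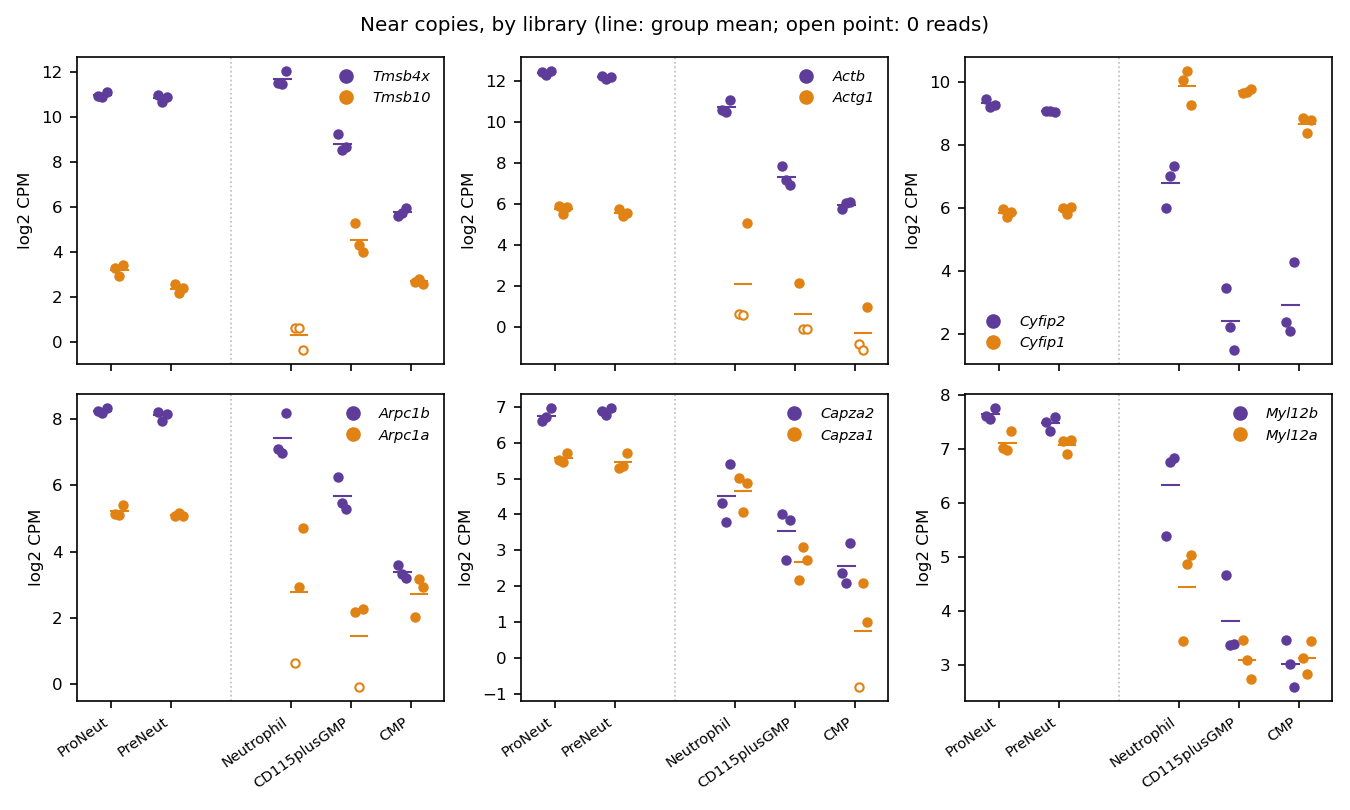
Log2 CPM by library (vertical axes) of 6 pairs of near copies in the 5 groups, with group means as lines and open points for 0 reads. Tmsb10 is at 0 reads in all 3 Neutrophil libraries, where Tmsb4x is at 11.43 to 12.03, and Cyfip1 lies above Cyfip2 in all 9 first-set libraries and below it in all 6 second-set libraries.

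Cap1 had 10.46, 10.88 and 10.63 log2 CPM in Neutrophil libraries, 7.53, 7.53 and 7.26 in CD115plusGMP libraries and 6.33, 6.59 and 5.98 in CMP libraries. Coro1a, coding for coronin 1A of blood cells, had 8.54, 8.21 and 10.11 log2 CPM in Neutrophil libraries, 6.5, 6.51 and 6.12 in CD115plusGMP libraries and 4.07, 3.97 and 3.9 in CMP libraries. Pfn1, coding for profilin, which feeds actin monomers to formins and VASP, had 8.74, 8.64 and 9.33 log2 CPM in Neutrophil libraries, 6.88, 6.14 and 6.0 in CD115plusGMP libraries and 5.92, 5.89 and 6.02 in CMP libraries. For Cap1 and Coro1a the 3 groups did not overlap, whereas for Pfn1 the CD115plusGMP and CMP libraries did. The differences between Neutrophil and CMP were 4.36 ± 0.25, 4.98 ± 0.43 and 2.96 ± 0.32 log2 units (adjusted p = 1.2e-08, 4.1e-07 and 2.8e-06). Cap1 was also called higher in CD115plusGMP than CMP (1.14 ± 0.25, adjusted p = 0.0055), under 1 of the 3 other scalings and in 5 of the 6 fits that leave out a library. Cap1 shares 129 exon bases with Ppt1 on the opposite strand, which had 1929, 253 and 112 reads in the Neutrophil, CD115plusGMP and CMP groups. In ProNeut and PreNeut, Ppt1 had 2476 and 8386 reads, against 44178 and 119531 on Cap1.

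Cfl1, coding for the severing protein cofilin, had 7.04, 6.34 and 8.23 log2 CPM in Neutrophil libraries, 6.69, 5.74 and 5.66 in CD115plusGMP libraries and 5.27, 5.19 and 5.76 in CMP libraries. Wdr1, which helps cofilin take filaments apart, had 6.65, 5.47 and 7.71 log2 CPM in Neutrophil libraries, 4.51, 3.82 and 4.68 in CD115plusGMP libraries and 3.73, 3.31 and 4.04 in CMP libraries. Coro1b had 4.88, 5.01 and 5.35 log2 CPM in Neutrophil libraries, 4.51, 2.72 and 4.57 in CD115plusGMP libraries and 4.07, 3.17 and 3.33 in CMP libraries. All 3 were called higher in Neutrophil than CMP, by 1.8, 2.91 and 1.56 log2 units, but Cfl1 and Coro1b under none of the other scalings, and Coro1b in 2 of the 6 fits that leave out a library. Between Neutrophil and CD115plusGMP, Cfl1 was called (adjusted p = 0.048) in 2 of those 6 fits and under none of the other scalings. Cfl1 shares 468 exon bases with Snx32 on the opposite strand, which had 25, 12 and 4 reads in the Neutrophil, CD115plusGMP and CMP groups.

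Of the 5 capping and severing genes tested, Gsn and Capza1 passed the filter on low reads through Neutrophil libraries alone. The other 3, Capg, Capzb and Capza2, were called higher in Neutrophil than CMP, Capg and Capzb also higher in Neutrophil than CD115plusGMP, and none between CD115plusGMP and CMP. Gsn, coding for gelsolin, which cuts and caps filaments when calcium rises, had 6.3, 5.97 and 7.53 log2 CPM in Neutrophil libraries, 2.55, -0.09 and 2.25 in CD115plusGMP libraries and 1.53, 0.51 and 1.86 in CMP libraries. Capg had 5.27, 6.45 and 7.24 log2 CPM in Neutrophil libraries, 4.33, 3.82 and 3.39 in CD115plusGMP libraries and 0.79, 3.01 and 1.86 in CMP libraries. Both were higher in every Neutrophil library than in any other of the first set. Against CMP the differences were 5.3 ± 0.83 and 4.43 ± 0.69 log2 units, with an adjusted p of 9.4e-05 for Capg. Gsn had 160, 6 and 7 reads and Capg 134, 27 and 13 in the Neutrophil, CD115plusGMP and CMP groups.

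The heterodimeric capping protein joins an alpha and a beta subunit. Its beta subunit gene Capzb had 6.41, 7.36 and 7.24 log2 CPM in Neutrophil libraries, 6.12, 4.77 and 5.48 in CD115plusGMP libraries and 4.63, 4.75 and 5.48 in CMP libraries, and its call between Neutrophil and CD115plusGMP was lost under all 3 other scalings. Capza1 had 5.02, 4.07 and 4.89 log2 CPM in Neutrophil libraries, 2.19, 3.08 and 2.74 in CD115plusGMP libraries and -0.79, 2.09 and 1.01 in CMP libraries. Capza2 had 4.33, 3.79 and 5.41 log2 CPM in Neutrophil libraries, 4.02, 2.72 and 3.84 in CD115plusGMP libraries and 2.38, 2.09 and 3.21 in CMP libraries. The alpha subunit genes had 33, 10 and 6 reads (Capza1) and 36, 22 and 19 (Capza2), and 73.8% of the 50-base words of Capza1 occur in transcripts of other genes. Capza1 shares 166 exon bases with St7l on the opposite strand, which had 269, 106 and 143 reads in the Neutrophil, CD115plusGMP and CMP groups. In ProNeut and PreNeut, St7l had 377 and 1155 reads, against 2958 and 9472 on Capza1. Capza2 was called between Neutrophil and CMP in 3 of the 6 fits that leave out a library and under 1 of the 3 other scalings. Vil1 had 0 reads in all Neutrophil libraries, 5, 2 and 2 in CD115plusGMP libraries and 4, 7 and 3 in CMP libraries, at least 2.09-fold and 1.88-fold lower in Neutrophil for a floor of 3 reads over the group.

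Both crosslinkers were called higher in all 3 comparisons. Lcp1 (GRCm38 chr14:75131101-75230842, plus strand) had 9.85, 9.63 and 10.94 log2 CPM in Neutrophil libraries, 6.78, 5.84 and 5.6 in CD115plusGMP libraries and 2.38, 3.01 and 3.64 in CMP libraries. This was the largest difference of the 52 genes between Neutrophil and CMP, at 7.13 ± 0.45 (adjusted p = 2.9e-08), and between CD115plusGMP and CMP it was 3.07 ± 0.45 (adjusted p = 0.00026). Flna had 8.42, 8.18 and 9.34 log2 CPM in Neutrophil libraries, 6.52, 5.04 and 6.37 in CD115plusGMP libraries and 3.85, 3.17 and 3.97 in CMP libraries. The difference of Flna was 4.98 ± 0.46 between Neutrophil and CMP and 2.31 ± 0.46 between CD115plusGMP and CMP (adjusted p = 7.1e-07 and 0.0026).

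For non-muscle myosin II, 3 of 4 genes were called higher in Neutrophil than in either progenitor group, and 0 of 4 between CD115plusGMP and CMP. Myh9, the heavy chain, had 9.47, 9.1 and 10.71 log2 CPM in Neutrophil libraries, 6.71, 5.58 and 5.36 in CD115plusGMP libraries and 4.94, 5.03 and 5.43 in CMP libraries. The regulatory light chain gene Myl12b had 5.38, 6.76 and 6.84 log2 CPM in Neutrophil libraries, 4.66, 3.37 and 3.39 in CD115plusGMP libraries and 3.46, 3.01 and 2.59 in CMP libraries. Its near copy Myl12a had 3.44, 4.86 and 5.04 log2 CPM in Neutrophil libraries, 3.47, 3.08 and 2.74 in CD115plusGMP libraries and 3.12, 2.83 and 3.44 in CMP libraries. The essential light chain gene Myl6 had 5.67, 4.32 and 3.59 log2 CPM in Neutrophil libraries, 2.55, 2.23 and 1.51 in CD115plusGMP libraries and 2.02, 1.73 and 2.15 in CMP libraries. Myh9 differed by 4.63 ± 0.44 between Neutrophil and CMP (adjusted p = 1.0e-06), Myl12b by 3.31 ± 0.58 and Myl6 by 2.56 ± 0.73. The call of Myl6 held under 1 of the 3 other scalings there, and against CD115plusGMP it held in 4 of the 6 fits that leave out a library. Myl12a, at 1.32 ± 0.64, missed the threshold (adjusted p = 0.088), and 29.6% of its 50-base words also occur in transcripts of other genes, Myl12b first among them.

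The genes that lengthen filaments had some of the largest differences. Vasp had 8.88, 8.35 and 9.86 log2 CPM in Neutrophil libraries, 4.81, 4.0 and 3.84 in CD115plusGMP libraries and 2.02, 3.01 and 2.39 in CMP libraries. Fmnl1 had 8.13, 7.15 and 8.94 log2 CPM in Neutrophil libraries, 5.65, 4.3 and 4.32 in CD115plusGMP libraries and 1.53, 2.38 and 1.86 in CMP libraries. Diaph1 had 7.83, 6.92 and 8.06 log2 CPM in Neutrophil libraries, 4.51, 2.72 and 4.32 in CD115plusGMP libraries and 2.67, 3.68 and 3.21 in CMP libraries. All 3 were higher in every Neutrophil library than in any other of the first set. Against CMP the differences were 6.56 ± 0.49, 6.15 ± 0.55 and 4.42 ± 0.55 log2 units (adjusted p = 1.0e-07, 5.6e-07 and 1.3e-05). Between CD115plusGMP and CMP, Fmnl1 and Vasp were called (2.83 ± 0.55 and 1.74 ± 0.49, adjusted p = 0.0023 and 0.023), Vasp in 3 of the 6 fits that leave out a library.

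Evl had 0.63, 2.94 and 3.77 log2 CPM in Neutrophil libraries, 4.42, 3.37 and 2.25 in CD115plusGMP libraries and 0.79, -1.08 and 1.49 in CMP libraries. It was called higher in CD115plusGMP than CMP (2.95 ± 0.95, adjusted p = 0.048), but on 23 reads against 4 and in 1 of the 4 fits without a library in which it could be tested. Its values in Neutrophil libraries overlapped both other groups, and Degs2, which shares 278 exon bases with it on the opposite strand, had 101, 1655 and 274 reads in the Neutrophil, CD115plusGMP and CMP groups. In ProNeut and PreNeut, Degs2 had 1 and 70 reads, against 43 and 106 on Evl. The part of this overlap in the Evl call was not tested.

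All 7 tested genes of small GTPases and their regulators were called higher in Neutrophil than in either progenitor group, and 3 of 7 higher in CD115plusGMP than CMP. Arhgdib, coding for the blood-cell inhibitor that holds small GTPases in the cytosol, had 8.58, 8.54 and 10.02 log2 CPM in Neutrophil libraries, 7.22, 6.1 and 6.5 in CD115plusGMP libraries and 2.91, 3.88 and 4.18 in CMP libraries. Rac1 had 8.44, 7.83 and 7.91 log2 CPM in Neutrophil libraries, 6.86, 6.35 and 5.86 in CD115plusGMP libraries and 4.57, 4.7 and 4.79 in CMP libraries. Vav1, coding for an exchange factor switched on by tyrosine kinases, had 5.38, 5.26 and 6.76 log2 CPM in Neutrophil libraries, 5.05, 4.0 and 3.84 in CD115plusGMP libraries and 2.38, 1.73 and 2.59 in CMP libraries. These are the 3 called in all 3 comparisons, with differences between CD115plusGMP and CMP of 2.95 ± 0.47, 1.67 ± 0.34 and 2.06 ± 0.6 log2 units (adjusted p = 0.00049, 0.0032 and 0.028). Without a library the call of Vav1 held in 1 of 6 fits there and in 3 of 6 between Neutrophil and CD115plusGMP. Rac1 shares 2309 exon bases with Daglb on the opposite strand, which had 26, 14 and 4 reads in the 3 groups.

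Cdc42 had 7.83, 6.88 and 7.72 log2 CPM in Neutrophil libraries, 6.48, 5.4 and 6.23 in CD115plusGMP libraries and 4.99, 5.33 and 5.37 in CMP libraries. Rhog had 5.67, 6.34 and 6.28 log2 CPM in Neutrophil libraries, 3.63, 2.23 and 3.39 in CD115plusGMP libraries and 2.91, 3.31 and 2.59 in CMP libraries. Rhoa had 6.12, 5.01 and 6.69 log2 CPM in Neutrophil libraries, 4.74, 3.37 and 3.39 in CD115plusGMP libraries and 3.46, 3.97 and 3.73 in CMP libraries. Between Neutrophil and CMP the differences were 2.25 ± 0.38, 3.16 ± 0.56 and 2.22 ± 0.57 log2 units (adjusted p = 0.00019, 0.00028 and 0.0039), and none of the 3 was called between CD115plusGMP and CMP. The calls of Cdc42, Rhoa, Vav1 and Dock2 between Neutrophil and CD115plusGMP held under none of the other scalings, and that of Rhoa between Neutrophil and CMP under 1 of 3. Dock2 had 5.27, 6.04 and 7.11 log2 CPM in Neutrophil libraries, 4.33, 1.5 and 4.88 in CD115plusGMP libraries and 2.67, 1.73 and 1.86 in CMP libraries, and Neutrophil exceeded CMP by 4.06 ± 0.83 (adjusted p = 0.00082). Its call against CD115plusGMP held in 4 of the 6 fits that leave out a library. Its partner Elmo1, not tested, had 2, 8 and 36 reads in Neutrophil, 4, 1 and 1 in CD115plusGMP and 0, 4 and 2 in CMP libraries.

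All 5 linkers to the membrane and to integrins were called higher in Neutrophil than in either progenitor group. Msn (moesin) had 8.51, 8.58 and 9.86 log2 CPM in Neutrophil libraries, 6.85, 6.35 and 5.95 in CD115plusGMP libraries and 4.42, 4.48 and 4.75 in CMP libraries. Ezr (ezrin), of the same family, had 6.56, 7.18 and 8.01 log2 CPM in Neutrophil libraries, 4.59, 4.44 and 5.06 in CD115plusGMP libraries and 5.44, 5.69 and 5.94 in CMP libraries. Msn was called higher in CD115plusGMP than CMP (1.84 ± 0.39, adjusted p = 0.0043), whereas every CD115plusGMP value of Ezr lay below every CMP value, a difference of -1.0 ± 0.41 that missed the threshold (adjusted p = 0.12) and was called lower under totals over rows with a symbol. Between Neutrophil and CMP, Ezr (1.56 ± 0.41, adjusted p = 0.0044) was called under none of the other scalings.

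Tln1 (talin 1), which together with kindlin-3 activates integrins, had 8.0, 7.44 and 8.9 log2 CPM in Neutrophil libraries, 5.45, 5.12 and 5.14 in CD115plusGMP libraries and 4.7, 5.15 and 5.06 in CMP libraries. Fermt3, the gene of kindlin-3, had 7.98, 8.86 and 7.81 log2 CPM in Neutrophil libraries, 5.92, 5.2 and 5.76 in CD115plusGMP libraries and 4.99, 5.49 and 5.19 in CMP libraries. Vcl (vinculin), which ties talin to actin, had 8.06, 8.49 and 7.99 log2 CPM in Neutrophil libraries, 5.05, 5.27 and 4.68 in CD115plusGMP libraries and 5.55, 4.75 and 5.56 in CMP libraries. In the first set every Neutrophil library was above every other one for these 3 genes, and the 2 progenitor groups overlapped. Neutrophil exceeded CMP by 3.14 ± 0.39, 2.99 ± 0.36 and 2.89 ± 0.35 log2 units (adjusted p = 1.2e-05, 9.7e-06 and 9.6e-06). Vcl shares 2090 exon bases with Ap3m1 on the opposite strand, Tln1 360 with Creb3 and Fermt3 89 with Trpt1. In the Neutrophil, CD115plusGMP and CMP groups, Trpt1 had 1104, 982 and 1143 reads, against 372, 93 and 119 on Fermt3. Creb3 had 334, 177 and 258 reads, against 436, 69 and 100 on Tln1, and Ap3m1 had 20, 10 and 12. In ProNeut and PreNeut, Trpt1 had 50 and 146 reads, against 10510 and 36484 on Fermt3. Creb3 had 597 and 1510 there, against 35991 and 100110 on Tln1, and Ap3m1 1622 and 5963, against 25127 and 79064 on Vcl. The part of these overlaps in the differences was not tested.

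Restricted to the 32 tested genes with under 50 such shared bases, 30 were called higher in Neutrophil than CMP and 1 lower. Against CD115plusGMP, 26 were called higher in Neutrophil and 1 lower. In CD115plusGMP against CMP, 7 of the 32 were called higher and 0 lower. All 52 tested genes gave 46 and 1, 40 and 1, and 16 and 0 in these comparisons. Over all rows tested, with or without shared bases, the shares called were 34% and 26.2%, 30.4% and 21.1%, and 11.4% and 5.2%. Other cell types' markers differed as well. In Neutrophil against CD115plusGMP, 6 of 9 monocyte markers were called lower and 1 higher, with summed levels of 49.0 to 234 CPM in Neutrophil and 363 to 649 CPM in CD115plusGMP libraries, and Irf8 and Ms4a6c were among those at 0 in Neutrophil. In Neutrophil against CMP, 12 of 14 erythroid markers were called lower and 1 higher, with 163 to 401 CPM in Neutrophil and 628 to 773 CPM in CMP libraries, and 13 of the 16 erythroid markers in the table were at 0 in Neutrophil. Also between Neutrophil and CMP, 4 of 9 monocyte markers were called higher and 1 lower (49.0 to 234 CPM in Neutrophil, 24.6 to 30.0 CPM in CMP), and 3 of 4 stem and progenitor markers lower (9.19 to 19.2 CPM in Neutrophil, 61.2 to 72.4 CPM in CMP). All 5 early granule markers tested were called lower in Neutrophil than CD115plusGMP, with 3.06 to 9.28 CPM in Neutrophil and 382 to 804 CPM in CD115plusGMP libraries. Both platelet markers tested were called higher in Neutrophil than in either progenitor group, with summed levels of 303 to 502 CPM in Neutrophil, 26.0 to 41.4 CPM in CD115plusGMP and 29.3 to 46.2 CPM in CMP libraries, and Pf4, Ppbp, Itga2b, Gp5 and Vwf were among those at 0 in Neutrophil. In CD115plusGMP against CMP, 7 of 9 monocyte markers were called higher, with 363 to 649 CPM in CD115plusGMP and 24.6 to 30.0 CPM in CMP libraries. All 5 early granule markers tested were called higher there as well, with 382 to 804 CPM in CD115plusGMP and 3.47 to 11.4 CPM in CMP libraries, and Elane and Ms4a3 at 0 in CMP. In the same comparison 12 of 14 erythroid markers were called lower and 0 higher, with 45.7 to 75.3 CPM in CD115plusGMP and 628 to 773 CPM in CMP libraries, and 6 of the 16 had any read in CD115plusGMP. Of 4 stem and progenitor markers tested, 2 were called lower, with 9.41 to 45.5 CPM in CD115plusGMP and 61.2 to 72.4 CPM in CMP libraries and Gata2 and Angpt1 at 0 in CD115plusGMP. The part of these in the actin differences was not tested.

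A further 127 actin and motility genes outside the 55 were listed, and 114 are in the table. Of 108 tested in the second set, 10 were called higher in ProNeut and 0 lower, against 3.75% and 3.65% of all rows tested. The largest differences were those of Rhoc (4.6 ± 1.03 log2 units ± SE, adjusted p = 0.0027), the membrane-skeleton adducin Add2 (4.19 ± 0.96, 0.0033), the tropomyosin Tpm4 (3.40 ± 0.23, 1.4e-08), Nckap1 (2.11 ± 0.75, 0.046), Myh10 (1.85 ± 0.55, 0.019) and the platelet and leukocyte protein pleckstrin, Plek (1.66 ± 0.09, 9.0e-10). Tpm4 had 1065 reads in ProNeut and 374 in PreNeut libraries and Plek 7685 and 8037, from unequal depths, whereas Rhoc had 86 and 25 and Add2 118 and 15.

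In the first set, 60 of 89 such genes were called higher in Neutrophil than CMP and 6 lower, against 34% and 26.2% of all rows tested. Called higher in Neutrophil than CD115plusGMP were 52, and 3 lower, against 30.4% and 21.1% of all rows tested. Against CMP the largest were Marcks (7.74 ± 0.52, adjusted p = 4.5e-08), Actn1, Myo1f (7.19 ± 0.75, 2.3e-06), Enah, Svil (6.5 ± 0.53, 2.6e-07) and Abi3 (6.45 ± 0.26, 4.0e-10). Actn1 (alpha-actinin 1) had 371 reads in Neutrophil and 3 in CMP libraries, a ratio of 307 (95% counting interval 104 to 1496), and Enah 74 and 0, at least 61.3-fold higher. Against CD115plusGMP they were Abi3 (8.29 ± 0.26, 1.0e-10), Actn1, Marcks (6.33 ± 0.52, 5.1e-07), Rhoc, Svil (5.32 ± 0.53, 3.2e-06) and Rhou. The ratio to CD115plusGMP was 532 for Actn1 (94.8 to 21050, 371 reads against 1), 38.2 for Rhoc (12.6 to 189, 80 against 3) and 48.7 for Rhou (12.98 to 410, 68 against 2). With group totals this low, no CMP library for Actn1 and Enah reached the 5 reads of the filter. The same holds for CD115plusGMP libraries and Actn1, Rhoc and Rhou. Abi3 shares 2913 exon bases with Zfp652 on the opposite strand, and first-set values may count that strand. It had 12697 to 19367 reads per Neutrophil library, but 28 to 57 per ProNeut library. The part of the overlap in the Abi3 differences was not tested.

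Between CD115plusGMP and CMP, 16 of the 89 were called higher and 4 lower, against 11.4% and 5.2% of all rows tested. Add2 had 0 reads in CD115plusGMP and 119 in CMP libraries, at least 22.9-fold lower, and Cttn (cortactin) 0 and 27, at least 5.19-fold lower. Rhob had 33 reads against 1, a ratio of 57.2 (9.58 to 2327). No CD115plusGMP library for Add2 and Cttn, and no CMP library for Rhob, reached the 5 reads of the filter. Myo1f (4.01 ± 0.75, adjusted p = 0.0017), Abi2 (3.85 ± 0.95, 0.011) and Myo5a (3.57 ± 0.66, 0.0017) were higher in CD115plusGMP.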

How the data were processed

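One table of log2 CPM was deposited by the authors, with 14801 rows named by Entrez identifier. Libraries were made with the Universal Plus mRNA-Seq kit, per the labels. The submitters' processing notes name GRCm38 (mm10), featureCounts 1.22.2, edgeR 1.30.5 and FastQC 0.11.7. The sources used here give no aligner, annotation or strand setting. In each of the 15 libraries, 100% of the deposited values came from whole reads plus 0.5 over 1 library size (to within 0.001 reads). The reads were therefore recovered, and totals cover the rows of the table. The 503 rows without a symbol were kept in tests and left out of read shares and percentiles.

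The 55 genes, their roles, the 127 further genes and the 9 marker lists were chosen with earlier results of these data known. Every gene of the 55 may be named, values in every library are given for genes called and for near copies, and up to 6 of the further genes per comparison, those called with the largest difference. Groups came from the labels. Rows with at least 5 recovered reads in at least 3 libraries of a set were tested (11835 in the second set, 7384 in the first), with limma 3.58.1 in R 4.3.3 (lmFit, eBayes with trend) on the deposited log2 values, the libraries of a set sharing 1 fit. P-values are 2-sided, Benjamini-Hochberg adjusted over all rows tested in a comparison. An exact permutation test of 3 against 3 libraries cannot go below p = 0.1. Reads were also simulated at a dispersion of 0.04. Of 200 changed genes, 90% were recovered in ProNeut against PreNeut (11835 genes) and 51.5% in CD115plusGMP against CMP (7384 genes). Recovery of differences under 1 log2 unit, at other dispersions or in the Neutrophil comparisons was not tested.

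Replicates differed by more than sampling noise (chi-square per degree of freedom 2.10 to 24.4). Percentiles are ranks among the rows with a symbol in a library. Coordinates, exon lengths and exon bases shared with an opposite-strand gene (at least 50) came from GENCODE, to which 14048 rows and all 55 genes could be matched. Fold bounds use a floor of 3 reads over the group, and intervals are exact at 95% and cover counting error only. Alternatives were other scalings, filters, added reads, limma voom, no trend, a replicate block, 1 fit over 15 libraries and each library left out.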

Additional observations from a re-analysis of the deposited data

How the results depend on the processing

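Between ProNeut and PreNeut, 1 of the 55 genes was called; with all 15 libraries in 1 fit the count was 0, and with an adjusted p under 0.05 and no minimum difference it was 13. Leaving out each library in turn gave 1 to 1 calls in that comparison, 11 to 15 in CD115plusGMP against CMP (16 with all libraries), 38 to 42 in Neutrophil against CD115plusGMP (41) and 43 to 46 in Neutrophil against CMP (47). Without Neutrophil replicate 3 the counts were 38 and 43. No alternative turned the direction of a called gene. Fits with a replicate block called 1, 15, 40 and 47 genes in the 4 comparisons. Over all rows tested the block called 484 higher and 442 lower, 828 and 365, 2217 and 1541, and 2476 and 1930. Whether same-numbered libraries are paired is not stated. Their deviations correlated at 0.055 to 0.086 in the second set and -0.049 to 0.096 in the first. In the second set each library correlated best with its own number. Correlations of this size cannot decide whether the libraries are paired. Without the size limit the block gave 23 higher and 1 lower between ProNeut and PreNeut, against 13 and 0, and a fit with no trend gave 4 and 0. The shares of all rows past that limit were not computed for the block and no-trend fits. The cause of these changes was not tested. Depth limits the first set: a library there has 1248 to 14775 reads on the 55 genes.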

Other observations

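Abi3, a relative of the WAVE subunit Abi1 outside the 55 genes, had 12697 to 19367 reads per Neutrophil library, against 61 to 105 per CD115plusGMP library and 389 to 552 per CMP library. In the second set, with more reads per library, it had 28 to 57 reads per ProNeut library and 17 to 49 per PreNeut library. Abi3 (GRCm38 chr11:95830074-95842476, minus strand) shares exon bases with Zfp652 (2913), Phospho1 (1708) and Gngt2 (234) on the opposite strand. Gngt2 had 0 to 17 reads per Neutrophil library and 1 to 7 per ProNeut library, and Phospho1 33 to 142 and 317 to 593. The part of these overlaps in the Abi3 values was not tested.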
